A study of Mus musculus with 5 samples.

Results

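The 7 genes described here encode the Fos and Jun subunits of the transcription factor AP-1. They are the Fos members Fos, Fosb, Fosl1 and Fosl2 and the Jun members Jun, Junb and Jund. They were taken by symbol from the 55276 rows of the deposited expression table, and all 7 were found and passed the filter on low values, a mean of at least 1 TPM, which left 16387 genes for testing. TPM is a transcript abundance corrected for length and scaled to 1000000 in each library, so that levels of different genes can be compared. The study measured RNA by sequencing in at least 2000000 sorted polymorphonuclear myeloid-derived suppressor cells (PMN-MDSCs), neutrophil-lineage cells that restrain T cells. There were 2 libraries from tumor, numbered 2 and 3, and 3 libraries from lung, numbered 1, 2 and 3, all of wild-type (WT) mice. The treatment label gives only the tissue, no transgene is labelled, and the series title places the samples in a study of galectin-1, tumoral STING and metastasis. The tumor model, the sort markers, the mouse strain and age, and any link of libraries to separate animals, are not stated in the labels. The p-values therefore cover only library-to-library spread, possibly technical, and TPM keeps no read depth.

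AP-1 is a dimer of basic leucine zipper (bZIP) proteins. Jun proteins pair with themselves or with Fos proteins, whereas Fos proteins need a Jun partner to bind DNA. Fos, Fosb and Junb are classical immediate early genes, transcribed within minutes of growth factor, cytokine or stress signals that run through MAP kinases and the factors SRF, ELK and CREB, while Jund is made at a steadier level in many cells. In neutrophils AP-1 takes part in the induction of cytokine genes, and in epithelial tumors Fosl1 and Jun are known for their part in invasion and proliferation.

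Each Fos gene lies on a chromosome of its own in the mouse, apart from the Jun genes (GRCm38, GENCODE M21). Fos is on chromosome 12 from 85473890 to 85477273, Fosl2 on chromosome 5 from 32135801 to 32157842, Fosb on chromosome 7 from 19302696 to 19310051 and Fosl1 on chromosome 19 from 5447547 to 5455946, and the longest coding transcript of each has 4 exons. Jun is on chromosome 4 from 95049034 to 95052222, and Junb, from 84974484 to 84978718, and Jund, from 70698949 to 70700616, are both on chromosome 8. The coding transcripts of Jun, Junb and Jund have 1 exon. The annotation holds 6 coding transcripts of Fosb and 2 of Fosl1. Values were deposited per gene, so the short form of FOSB, which lacks the C-terminal part of the protein, cannot be told apart from the long form.

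RefSeq promoters (GRCm38.p6, 250 bases before to 50 bases after RefSeq's start) were found for 6 of the 7 genes, all but Fosl1. RefSeq's starts are not always those of the GENCODE genes above: the window of Jund, from 70697489 to 70697788, ends before the GENCODE start of Jund, and that of Fosl2 begins after the GENCODE start of Fosl2. Those of Fos, Junb and Fosl2, whose transcripts were lower in tumor, are shown with that of Jun, whose transcript was not. They lie at chr12:85473640-85473939 on the plus strand, chr8:84978699-84978998 on the minus strand, chr5:32136222-32136521 on the plus strand and chr4:95052173-95052472 on the minus strand. Each is written 5′ to 3′ on the gene's strand, with capitals for TGACG, the core of the cyclic AMP response element, and for TGACATCA, a variant of the AP-1 site.
Fos: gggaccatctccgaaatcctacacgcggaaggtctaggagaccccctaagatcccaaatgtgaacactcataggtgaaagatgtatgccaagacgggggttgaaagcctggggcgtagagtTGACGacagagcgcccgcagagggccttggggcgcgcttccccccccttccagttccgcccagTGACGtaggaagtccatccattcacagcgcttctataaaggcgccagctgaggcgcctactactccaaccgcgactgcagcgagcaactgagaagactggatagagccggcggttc
Junb: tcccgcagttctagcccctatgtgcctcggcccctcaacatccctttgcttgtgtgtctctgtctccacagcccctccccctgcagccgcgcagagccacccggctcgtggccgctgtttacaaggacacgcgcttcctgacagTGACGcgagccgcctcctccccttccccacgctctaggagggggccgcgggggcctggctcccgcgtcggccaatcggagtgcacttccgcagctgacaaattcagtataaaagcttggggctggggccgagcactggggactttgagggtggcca
Fosl2: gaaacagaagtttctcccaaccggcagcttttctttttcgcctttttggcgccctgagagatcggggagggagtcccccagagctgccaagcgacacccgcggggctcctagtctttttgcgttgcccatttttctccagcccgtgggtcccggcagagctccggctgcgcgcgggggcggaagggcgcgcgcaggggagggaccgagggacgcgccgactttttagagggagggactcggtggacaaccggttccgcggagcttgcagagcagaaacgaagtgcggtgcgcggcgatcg
Jun: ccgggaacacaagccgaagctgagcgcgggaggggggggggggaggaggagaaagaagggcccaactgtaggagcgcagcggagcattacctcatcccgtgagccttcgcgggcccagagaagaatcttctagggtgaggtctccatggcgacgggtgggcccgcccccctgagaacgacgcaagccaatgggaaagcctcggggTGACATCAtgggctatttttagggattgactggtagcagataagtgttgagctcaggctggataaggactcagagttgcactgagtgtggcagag
The core TGACG was found in the windows of Fos (starting at positions -129 and -66 from RefSeq's start), Junb (-106) and Fosb (-60), and 20.8% of all 32851 RefSeq promoters of this length hold it on either strand. TGACATCA was found at -45 of Jun alone among the members, and 3.62% of all promoters hold it. The full AP-1 site TGACTCA and the full element TGACGTCA were in none of the 6 windows, against 5.20% and 1.79% of all promoters. The CArG box bound by SRF was likewise in none of these 300-base windows, against 1.63% of all. GGGCGG, the GC box, was in the windows of Fos, Fosb, Fosl2 and Jun and in 35.7% of all promoters, and CC and GG spaced by any 6 bases, a looser form of the CArG box that contains it, in 5 of the 6 and in 73.3% of all. TGACG is contained in TGACGTCA, and motifs were read on both strands. These matches describe the letters of the windows and say nothing of binding.

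Both tumor libraries went against their label in the markers they carried. The summed TPM of 15 neutrophil markers was 1193 and 4036 in tumor, against 38129 to 64035 in lung, and all 15 were lower. Among them Ly6g was at 62.2 and 86.7 TPM in tumor, against 255, 395 and 213 TPM in lung, a call that ended without tumor replicate 2 (-1.67, adjusted p = 0.0595). Of 30 pan-leukocyte markers all 30 were lower, and their summed TPM was 1044 and 2889 in tumor, whereas lung libraries held between 19659.7 and 21384. Ptprc, the gene of CD45, was at 18.5 and 75.3 TPM in tumor and at 842, 926 and 959 TPM in lung. Epithelial markers were higher for 14 of 15 genes and had sums of 6822 and 6866 TPM in tumor, while lung sums lay between 60.0 and 126 TPM. Fibroblast markers, of which 6 of 10 were higher (2 without lung replicate 2 and 3 without lung replicate 3), summed to 1270.5 TPM in tumor replicate 2 and 232 TPM in tumor replicate 3, while lung sums lay between 25.8 and 33.2 TPM. Macrophage and monocyte markers, 4 higher and 7 lower of 12 (4 lower without lung replicate 1 or 3 or tumor replicate 2), summed to 1287 and 3003 TPM in tumor and to between 2010.4 and 2380.2 TPM in lung. All 10 endothelial markers and 4 of 7 tested lymphocyte markers were lower in tumor. Over all tested genes, 27.0% were called lower and 31.6% higher. No listed marker of any of these cell types was at 0 in both tumor libraries. The part of these differences in the AP-1 values below was not tested, and in bulk samples fewer cells of a type and less RNA per cell cannot be told apart.

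Fos, Junb and Fosl2 were lower in tumor, Jun was slightly higher, and Fosb, Fosl1 and Jund did not pass the test. Genes were tested with limma on log2(TPM + 1), and called at a Benjamini-Hochberg adjusted p under 0.05 over all tested genes with a difference of at least 1.5-fold. With 3 members called lower and 1 called higher, 57.1% of the family was called, close to the 58.6% of all tested genes. Calls lower in tumor made up 27.0% and calls higher in tumor 31.6% of tested genes. For 6 of the 7 members the tumor values lay entirely outside the lung values, which held for 75.6% of all tested genes. In 5 of these tumor lay below lung, as in 35.7% of tested genes, and in 1 above, as in 39.9%. Leaving out each library in turn left 3 members lower, and 4 without lung replicate 1. Unless stated otherwise, values below are TPM, errors of means are SD (n = 2 tumor, n = 3 lung), and a difference is the tumor mean of log2(TPM + 1) less the lung mean, given ± SE beside limma's adjusted p.

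**Figure D1:**
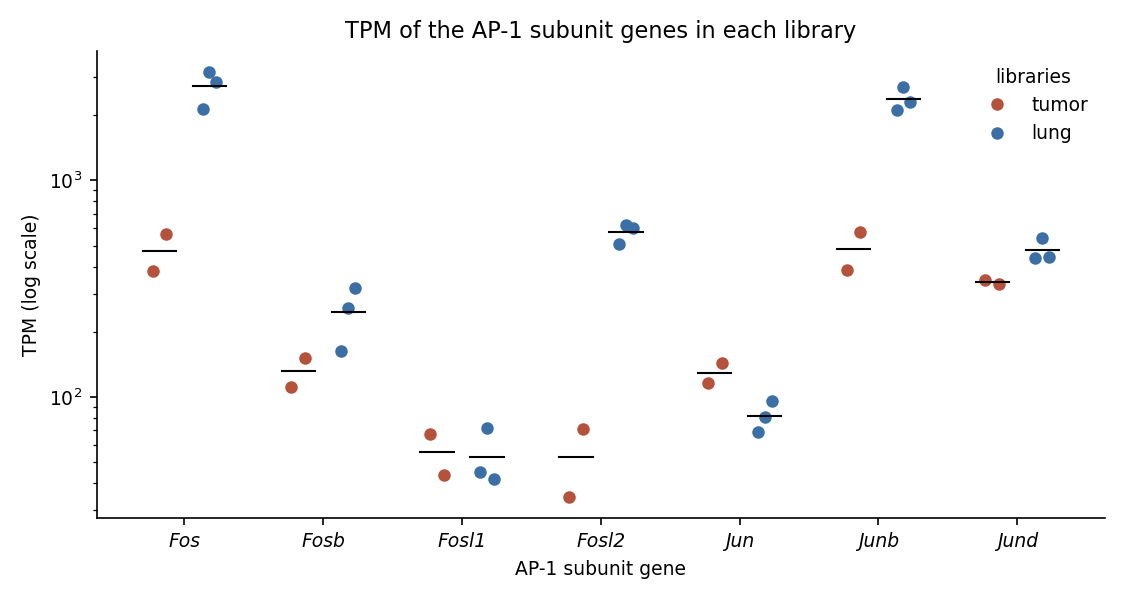
TPM of each AP-1 subunit gene on a log axis, with tumor libraries (red) left of lung libraries (blue), 1 point per library and a bar at the group mean. Fos, Fosl2 and Junb stand far lower in tumor than in lung, Jun stands higher, and the Fosl1 points overlap.

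Fos, the founding member and partner of every Jun protein, was at 380.0 and 565 TPM in tumor, against 2148, 3175 and 2856 TPM in lung. Every tumor value lay below every lung value. The means were 473 ± 131 TPM in tumor and 2726 ± 526 TPM in lung, 5.77-fold lower in tumor, and the difference was -2.53 ± 0.27 (adjusted p = 0.00193). By rank of TPM over all rows Fos was number 279 and 178 in the tumor libraries and number 35, 23 and 19 in the lung libraries, so it was among the most abundant transcripts of the lung samples.

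Fosb, an inducible Fos member with strong activating function, was at 112 and 151 TPM in tumor and at 162, 258 and 318 TPM in lung. The groups did not overlap, but the highest tumor value was close to the lowest lung value. The means of 131 ± 28.1 TPM in tumor and 246 ± 78.7 TPM in lung differed by -0.86 ± 0.34, which did not pass (adjusted p = 0.0777). Without lung replicate 1, the lowest of the lung libraries, the difference was -1.13 and passed (adjusted p = 0.0234).

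Fosl2, which encodes FRA-2, a Fos protein without the C-terminal activation domain of FOS, had the lowest tumor level relative to lung. It was at 34.5 and 71.3 TPM in tumor, against 508, 621 and 602 TPM in lung, with no overlap. Tumor replicate 2 held less than tumor replicate 3, as it did for 5 of the 7 members. Mean levels were 52.9 ± 26.0 TPM in tumor and 577 ± 60.7 TPM in lung, 10.9-fold lower in tumor (-3.51 ± 0.33, adjusted p = 0.0016). Only 3.30% of tested genes had a lower difference.

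Fosl1, which encodes FRA-1, the other Fos protein without that domain, was at 67.3 and 43.4 TPM in tumor and at 44.9, 71.4 and 41.8 TPM in lung. The groups overlapped, and tumor replicate 2 was the higher of the tumor libraries. The difference of 0.076 ± 0.32 did not pass (adjusted p = 0.850), with means of 55.3 ± 16.9 TPM in tumor and 52.7 ± 16.2 TPM in lung. Its sign turned without lung replicate 1 or 3 or tumor replicate 2 (-0.016, -0.066 and -0.23).

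Among the Jun genes, Junb encodes a Jun protein that activates weakly as a homodimer and can restrain JUN. Junb was at 384 and 577 TPM in tumor, against 2109.5, 2708 and 2314 TPM in lung. The tumor values were all below the lung values. Its means were 481 ± 137 TPM in tumor and 2377 ± 304 TPM in lung, 4.95-fold lower in tumor (-2.33 ± 0.24, adjusted p = 0.00182). Junb ranked 275 and 175 among all rows in tumor and 37, 28 and 26 in lung, close to Fos in each library.

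Jun, the subunit that JNK kinases phosphorylate, was at 116 and 143 TPM in tumor and at 68.7, 80.4 and 95.8 TPM in lung. All tumor values lay above all lung values, the reverse of Junb. The means were 129 ± 19.3 TPM in tumor and 81.6 ± 13.6 TPM in lung, a 1.58-fold rise (0.66 ± 0.21, adjusted p = 0.0412). The call was fragile. It ended when lung replicate 1 or 2, or tumor replicate 2 or 3, was left out (adjusted p = 0.0954, 0.1002, 0.0768 and 0.164), and when libraries were scaled by the median of ratios (adjusted p = 0.0911).

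Jund, the steadily made Jun member that often opposes growth, was at 347 and 331 TPM in tumor and at 439.6, 542 and 444 TPM in lung. Tumor values lay below lung values without overlap, by the smallest margin of the non-overlapping members in fold of the means. With 339 ± 11.3 TPM in tumor and 475 ± 58.1 TPM in lung, the difference of -0.48 ± 0.16 just missed the threshold (adjusted p = 0.0545). With median-of-ratios scaling it passed (-0.66, adjusted p = 0.0407). Jund ranked 306 and 296 among all rows in tumor and 292, 234 and 284 in lung.

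The authors' deposited table gives the same contrast with its own p-values, whose test the design text does not name, and natural log folds of tumor over lung. Of the 7 members, 0 had a false discovery rate under 0.05 in the authors' deposited table. Fos, Fosl2, Junb and Jund had an unadjusted p under 0.05 there, but the share of all rows with such a p was not computed. The limma calls used a stricter threshold, an adjusted p with a fold limit, so the 2 sets are not alike in measure. They held Jun but not Jund, whose unadjusted p in limma was 0.0330. The authors' deposited table lists Fosl2 with a natural log fold of -2.39 and a false discovery rate of 0.0652, Junb with -1.60 and 0.0826, Fos with -1.75 and 0.127, and Jun with 0.46 and 0.309. Of its 34956 rows with a p-value, 223 had a false discovery rate under 0.05.

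The order of the subunits differed between the tissues. In the tumor libraries Junb and Fos were nearly equal and Jund came next, at 347 TPM beside 380.0 TPM of Fos in replicate 2 and at 331 TPM beside 565 TPM in replicate 3. Fosb and Jun followed and changed places between the tumor libraries, as did Fosl1 and Fosl2 at the bottom, so neither pair differed beyond its spread there. In all 3 lung libraries the order was Fos, Junb, Fosl2, Jund, Fosb, Jun and Fosl1. In lung the ranges of Fos and Junb overlapped over the libraries, as did those of Fosl2 and Jund, and of Jun and Fosl1.

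Composition can be read within a library, where the scaling of the library cancels out. The 7 transcripts summed to 1439.65 and 1883 TPM in tumor, against 5480.2, 7455 and 6671 TPM in lung. Fos and Junb together made up 53.0% and 60.7% of that sum in tumor and 77.7%, 78.9% and 77.5% in lung. Jund held 24.1% and 17.6% in tumor, against 8.02%, 7.27% and 6.65% in lung. Jun held 8.02% and 7.59% of the sum in tumor and 1.25%, 1.08% and 1.44% in lung. Thus the tumor libraries carried a larger fraction of Jun and Jund and a smaller one of Fos and Junb.

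**Figure D2:**
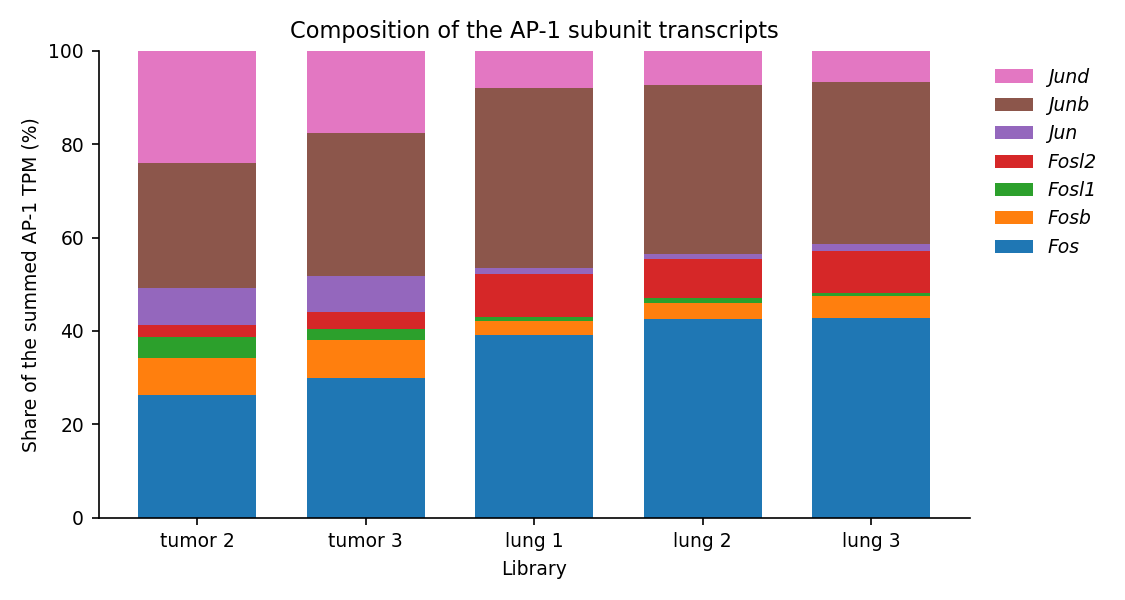
Stacked bars of the percentage of the summed TPM of the 7 AP-1 genes that each gene held, 1 bar per library, tumor on the left. Jund (pink) and Jun (purple) take more and Fosl2 (red) less of the tumor bars than of the lung bars, and Fos plus Junb fills 53.0% and 60.7% of the tumor bars against 77.5% to 78.9% of the lung bars.

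The smaller members moved in both directions. Fosb held 7.75% and 8.04% of the sum in tumor, against 2.96%, 3.46% and 4.77% in lung. Fosl1 held 4.67% and 2.31% in tumor and 0.820%, 0.957% and 0.627% in lung. Fosl2 went the other way, at 2.40% and 3.79% in tumor, against 9.26%, 8.33% and 9.02% in lung. For each of the 7 shares the groups did not overlap, and the exact two-sided permutation p was 0.1, the smallest that 10 splits of 3 against 2 libraries allow, so no share could pass 0.05.

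Ratios between relatives show the same within each library. There were 3.32 and 4.04 Junb transcripts per Jun transcript in tumor, against 30.7, 33.7 and 24.2 in lung. On the log2 scale Jun over Junb was higher in tumor by 2.996 and Jund over Junb by 1.85. Fos stood at 5.65 and 13.0 times Fosl1 in tumor and at 47.8, 44.5 and 68.3 times in lung. The ratio of Fos to Fosl2, by contrast, was higher in tumor, at 11.0 and 7.93, against 4.23, 5.11 and 4.74 in lung. The ratio of Fos to Junb was 0.990 and 0.979 in tumor and 1.02, 1.17 and 1.23 in lung, lower in tumor without overlap by a small margin (exact two-sided permutation p = 0.2). All 4 Fos members summed to 593 and 831 TPM in tumor, against 2862, 4125 and 3818 TPM in lung. The 3 Jun members summed to 846 and 1051 TPM in tumor, against 2618, 3331 and 2853 TPM in lung. Jun members thus outweighed Fos members in both tumor libraries and Fos members outweighed Jun members in all lung libraries. The log2 ratio of the sums was lower by 0.71 in tumor (-0.71, exact two-sided permutation p = 0.1).

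Set against leukocyte transcripts, no AP-1 gene was called lower in tumor. The 30 pan-leukocyte markers had a median difference of -3.54, and when libraries were centred on them 5 members were higher and 0 lower, but this scaling moves the median of all tested genes to 3.53 and calls 14175 of them higher and 81 lower. Fosl2 was then level between the tissues (0.0081, adjusted p = 0.99), Fos was 0.98 higher without passing (adjusted p = 0.0667) and Junb 1.19 higher (adjusted p = 0.0269). Fosb, Jund, Fosl1 and Jun were higher by 2.65, 3.03, 3.59 and 4.17. This scaling adds the same amount to every gene's difference, so it cannot change the order of the members.

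**Figure D3:**
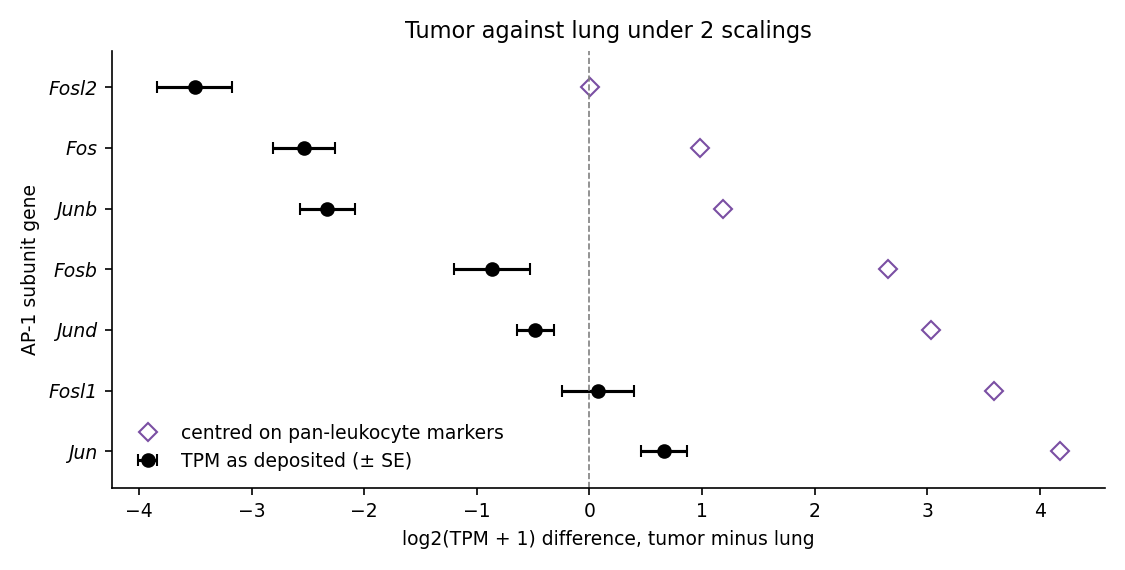
Differences in log2(TPM + 1), tumor minus lung, for the 7 AP-1 genes, with TPM as deposited (black points, bars ± SE) and after centring libraries on 30 pan-leukocyte markers (open diamonds). As deposited, values run from -3.51 for Fosl2 to 0.66 for Jun, and centring moves all of them by the same amount, to between 0.0081 and 4.17.

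The genes most like each member were sought by the Euclidean distance between mean-centred log2(TPM + 1) profiles over the 5 libraries, a measure that mainly reads the difference between tissues. Fos and Junb were the closest pair of members, at 0.31, while Fosl2 and Jun were the farthest apart, at 4.60. Outside the family, Ypel5 lay nearest to Fos at 0.055, at 13.6 and 20.0 TPM in tumor and 80.0, 116 and 109 TPM in lung, followed by Card6 (0.14) and Mtus1 (0.17). Lmbr1l, Taf7 and Tcn2 were nearest to Junb, at 0.079, 0.094 and 0.14. Fosl2 lay nearest to Txnip (0.12), Trim12a (0.15) and Tmem71 (0.17). The nearest to Jun were Accs, Zfp609 and Pbx3, at 0.071, 0.10 and 0.15. Jund lay close to the ubiquitin gene Ubb, at 0.076, and to Larp4b (0.099) and Polr3gl (0.0998). Rfx3, Sytl3 and Blcap, at 0.15, 0.15 and 0.17, were nearest to Fosb, and Pdzk1ip1, H3c15 and Rrnad1, at 0.15, 0.20 and 0.23, to Fosl1. Some of these genes were low in all libraries. Sytl3, for example, was at 0.517 and 0.858 TPM in tumor and 1.13, 2.33 and 3.49 TPM in lung. The 1 added before the log shrinks differences at such levels, so likeness to a low gene is less certain.

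Other immediate early genes were mostly lower in tumor, as Fos and Junb were, whereas Fosb did not pass and Jun was slightly higher. Of 30 tested genes of this list 22 were lower and 5 higher, with a median difference of -1.56, beside 4431 lower, 5178 higher and a median of 0.018 over all tested genes. Dusp1, a phosphatase that switches off MAP kinases, was at 288 and 609 TPM in tumor, against 3217, 4555 and 4144 TPM in lung (-3.23 ± 0.37, adjusted p = 0.00221). Nr4a1, an orphan nuclear receptor gene, was at 26.4 and 44.3 TPM in tumor and at 331, 321 and 335 TPM in lung. Plk3, a stress-responsive kinase gene, was at 19.4 and 26.9 TPM in tumor and 111, 128 and 121 TPM in lung. Egr1, a zinc finger factor induced together with Fos, was at 161 and 317 TPM in tumor and 424, 635 and 797 TPM in lung (-1.40 ± 0.41, adjusted p = 0.0329), a call that ended without tumor replicate 2 (-0.92, adjusted p = 0.180) and without lung replicate 2 or 3 (adjusted p = 0.0914 and adjusted p = 0.0845). Egr1 also missed the threshold when genes of any level were tested (adjusted p = 0.0664) and with TPM rescaled without mitochondrial genes (adjusted p = 0.0505).

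The higher immediate early genes were Ccn1, Ccn2, Arc, Dusp6 and Myc. Ccn1, a matricellular protein gene of adherent cells, was at 48.2 and 33.8 TPM in tumor, against 1.91, 1.08 and 1.015 TPM in lung (4.17 ± 0.27, adjusted p = 0.00104). Ccn2, its relative, was at 72.7 and 75.1 TPM in tumor and 3.84, 1.42 and 1.91 TPM in lung (4.53 ± 0.33, adjusted p = 0.00116). Myc no longer passed when tumor replicate 2 (adjusted p = 0.138) or tumor replicate 3 (adjusted p = 0.0603) was left out, or when a replicate block by number was fitted (adjusted p = 0.0677).

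**Figure D4:**
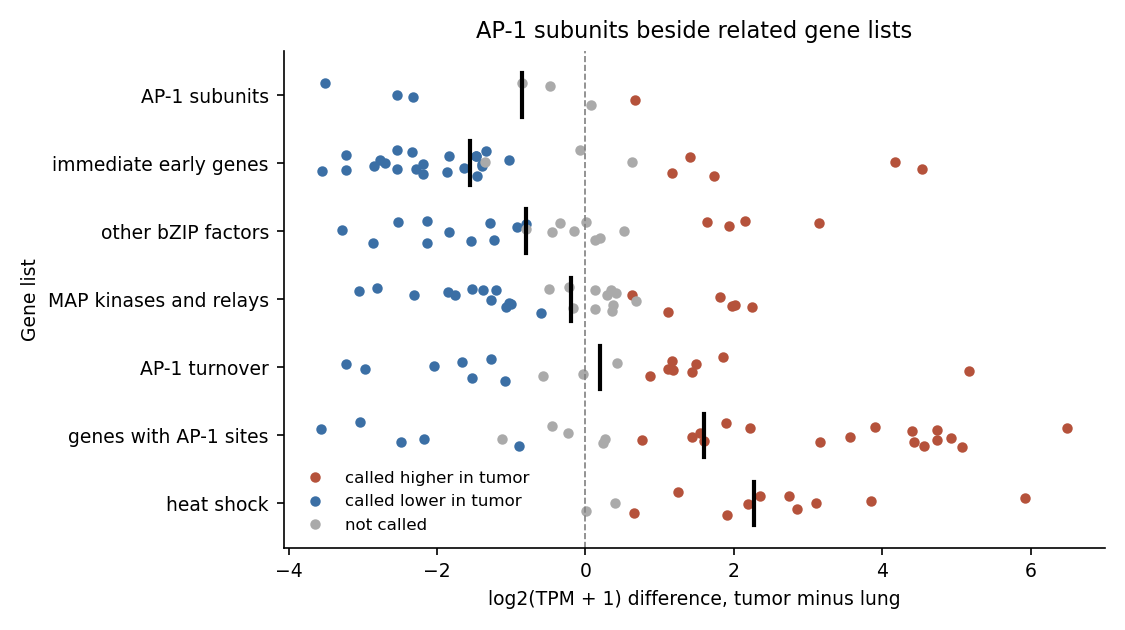
Differences in log2(TPM + 1), tumor minus lung, of every tested gene of the AP-1 family and 6 related lists, 1 point per gene, with a black bar at the median of each list. Immediate early genes lie mostly to the left (median -1.56), and genes with AP-1 sites (1.60) and heat shock genes (2.27) mostly to the right.

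Other bZIP factors, which pair or compete with AP-1 subunits, were more often called lower than higher in tumor, against 27.0% lower and 31.6% higher over all tested genes. Of 23 tested, 11 were lower and 4 higher (median difference -0.81), and 7 were lower without tumor replicate 2. Batf, which pairs with Jun proteins in leukocytes, was at 1.08 and 4.74 TPM in tumor, against 30.7, 35.9 and 31.7 TPM in lung (-3.29 ± 0.45, adjusted p = 0.0034). Jdp2, a repressor that dimerizes with Jun proteins, was at 23.3 and 34.4 TPM in tumor and 112, 147 and 126 TPM in lung (-2.13 ± 0.23, adjusted p = 0.00195). Atf3, a stress-induced partner of Jun, was at 80.2 and 154 TPM in tumor and 159, 211 and 221 TPM in lung, which did not pass (-0.81 ± 0.33, adjusted p = 0.0883) but did without tumor replicate 3 (-1.27, adjusted p = 0.0289).

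Cebpd, a bZIP factor of the acute phase response, and Nfe2l2, the gene of NRF2, were lower, with differences of -2.53 and -2.13. Maf, Nfe2l1 and Atf5 were among the higher bZIP genes. Maf, a factor of macrophages and lymphocytes, was at 23.3 and 24.4 TPM in tumor, against 2.07, 1.14 and 2.40 TPM in lung.

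The kinases and relays that carry signals to AP-1 were split. Of 30 tested, 13 were lower and 6 higher (median difference -0.19), and 3 were higher without tumor replicate 2, beside 27.0% lower and 31.6% higher over all tested genes. Map3k1 and Map3k5, kinases at the head of the JNK and p38 cascades, were lower, at 9.93 and 13.3 TPM in tumor against 60.7, 52.6 and 70.3 TPM in lung for Map3k1 and at 8.30 and 12.1 TPM in tumor against 60.9, 79.1 and 93.8 TPM in lung for Map3k5. The p38 genes went both ways. Mapk11 and Mapk12 were higher, by 2.02 and 2.25. Mapk13 and Mapk14 were lower, with differences of -1.76 ± 0.28 and -3.05 ± 0.37 (adjusted p = 0.00492 and adjusted p = 0.00252). Mapk14 was the most abundant p38 gene in both tissues, with means of 32.7 TPM in tumor and 277.8 TPM in lung. The JNK genes Mapk8 and Mapk9 did not pass, with differences of 0.41 ± 0.28 and 0.12 ± 0.19 (adjusted p = 0.256 and adjusted p = 0.598). Srf encodes the factor known to bind a CArG box of Fos, which the 300-base window above did not hold. Srf was at 19.0 and 24.4 TPM in tumor and 43.2, 43.0 and 54.2 TPM in lung (-1.08 ± 0.20, adjusted p = 0.0079).

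Genes that restrain AP-1 or degrade its subunits went both ways, as did all tested genes (31.6% higher and 27.0% lower), with 8 higher and 7 lower of 18 and a median of 0.19 that turned to -0.57 in genes of at least 5 TPM. Without tumor replicate 2, 5 were higher. Dusp4, a MAP kinase phosphatase gene, was at 89.8 and 73.8 TPM in tumor, against 1.98, 0.663 and 1.41 TPM in lung (5.17 ± 0.30, adjusted p = 0.000901). Dusp16, whose product acts on JNK, was at 7.47 and 11.1 TPM in tumor, against 66.6, 94.9 and 76.0 TPM in lung (-2.97 ± 0.25, adjusted p = 0.0013). Nr3c1, the glucocorticoid receptor gene, whose product represses AP-1, was at 13.0 and 18.2 TPM in tumor and 59.0, 70.1 and 72.5 TPM in lung. Csk, a kinase that restrains SRC, was lower, with a difference of -1.54.

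Genes known in other cells to carry AP-1 sites were more often higher than lower. Of 27 tested, 17 were higher and 5 lower, with a median of 1.60, beside 31.6% higher and 27.0% lower over all tested genes. Hbegf, an EGF receptor ligand gene, was at 53.0 and 47.5 TPM in tumor, against 1.41, 1.12 and 1.77 TPM in lung (4.41 ± 0.20). Ccnd1, the gene of cyclin D1, was at 269 and 206 TPM in tumor and 9.56, 7.003 and 7.20 TPM in lung (4.74 ± 0.21). Plau, the gene of urokinase, was at 133 and 91.5 TPM in tumor and 2.87, 1.80 and 2.31 TPM in lung (5.08 ± 0.25), and Sprr1a, of the epithelial cornified envelope, was higher by 4.57. The lower genes were Plaur, Ptgs2, Mmp9, Il1b and Cd44, genes that leukocytes express. Many genes of this list are made by epithelial and stromal cells, whose marker sums were higher in the same libraries, and their part in these differences was not tested.

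Chaperone genes, which heat and tissue dissociation are known to induce beside Fos and Jun, were higher in tumor for 10 of 12 genes, with a median of 2.27. Over all tested genes 31.6% were called higher, and the median was 0.018. Hspd1, a mitochondrial chaperonin gene, was at 188 and 153 TPM in tumor, against 24.6, 21.6 and 22.2 TPM in lung (2.85 ± 0.17). Hsp90aa1 was at 1076 and 924 TPM in tumor and 291, 236 and 269.5 TPM in lung (1.91 ± 0.17). Hspa1a and Hspa1b were higher by 2.74 and 3.84, but they are near-identical copies and the division of reads between them is uncertain. The part of handling in the AP-1 values was not tested.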

How the data were processed

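RNA of sorted PMN-MDSCs was measured in 2 tumor and 3 lung libraries, each labelled 20M paired reads. The authors deposited TPM, which Salmon 0.9.1 estimated from the GENCODE mouse M24 transcripts, according to the design text. Each library sums to 1000000 TPM, so a rise in some transcripts lowers the others, and read depth is unknown. The p-values and natural log folds of the authors' deposited table were only described. Groups came from the tissue label and numbers from the titles. Of 55276 rows, 26 with spreadsheet dates in place of symbols (0.065% to 0.0826% of a library's TPM) were left out.

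Tumor was tested against lung in genes averaging 1 TPM or more, with limma 3.58.1 in R 4.3.3 (empirical Bayes with intensity trend) on log2(TPM + 1), two-sided, with Benjamini-Hochberg adjustment over 16387 genes. A pseudocount of 1 understates the change of low genes. Ratios within libraries were compared by exact permutation. The steps were tested on simulated data. The simulation gave tumor libraries the spread of the lung libraries, so it could not assess the test under the tumor libraries' own spread. Alternatives covered the pseudocount, the filter, the spread model, the scaling, the fold limit, a replicate block and leaving out each library.

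Members and lists were chosen with earlier results of these data known. Named genes are the members, the up to 4 genes with the smallest p of each list, and the 3 nearest genes of each member, without predicted genes. Atf3, Batf, Jdp2, Dusp1, Egr1, Mapk8, Mapk9, Srf, and genes that complete a count of 5 or fewer, were chosen after their values were seen. So were Mapk13 and Mapk14, whose values under the alternatives are not given. A gene of the bZIP list is not reported here by name. Promoter motifs TGACG, TGACATCA and the CArG box were also added then. Coordinates are those of GENCODE M21 (GRCm38), matched by symbol.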

Additional observations from a re-analysis of the deposited data

How the results depend on the processing

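The calls of Fos, Fosl2 and Junb as lower held under 15 of the 16 alternatives, with differences from -2.82 to -2.25, from -4.02 to -2.99 and from -2.62 to -2.03. The exception was centring on the pan-leukocyte markers, where the differences were 0.98 for Fos, 2.65 for Fosb, 3.59 for Fosl1, 0.0081 for Fosl2, 1.19 for Junb and 3.03 for Jund, with 5 members higher and 0 lower. The median of ratios, which put the median of all genes at -0.14 in place of 0.018, gave -1.05 for Fosb, -0.10 for Fosl1, 0.48 for Jun and -0.66 for Jund, and 5 members lower with 0 higher. Leaving out mitochondrial genes put that median at 0.13.

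The call of Jun (0.66) also ended with no filter, without the intensity trend and at a fold limit of 2, and under the replicate block (0.54), each leaving 0 members higher. The title numbers do not state a pairing, deviations of same-numbered libraries correlated at 0.051 across genes, and the replicate block gave -1.13 for Fosb, -0.016 for Fosl1, and 4094 genes higher with 3638 lower. Leaving out single libraries moved Jun between 0.51 and 0.81, Fosb between -1.13 and -0.64, Fosl1 between -0.23 and 0.39, and the number of members higher between 0 and 1. Over all genes it moved the number higher between 3314 and 4817 and the number lower between 2900 and 4134, both lowest without tumor replicate 2, and centring gave 14175 and 81. Shares of the AP-1 sum moved between 1.50 and 3.87 percentage points for Fosl1, between -6.47 and -5.09 for Fosl2 and between 10.3 and 16.8 for Jund. The log2 ratios moved between 2.01 and 3.22 for Fosl1 over Fos, between -1.23 and -0.76 for Fosl2 over Fos and between 1.52 and 2.18 for Jund over Junb. The cause of these changes was not tested.

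Signs of other values turned as follows. Centring gave medians of 2.65 for the AP-1 genes, 2.71 for other bZIP genes, 1.96 for immediate early genes and 3.32 for kinases and relays. It gave 0.99 for Cebpd, 1.38 for Nfe2l2, 0.28 for Nr4a1, 1.18 for Plk3, 1.21 for Map3k1, 0.70 for Map3k5, 0.54 for Dusp16, 1.46 for Nr3c1, 1.98 for Csk, 0.23 for Batf, 1.38 for Jdp2, 2.71 for Atf3, 0.29 for Dusp1, 2.11 for Egr1, 2.44 for Srf, 1.02 for Plaur, 1.34 for Ptgs2, 0.48 for Mmp9, 2.62 for Cd44 and 1.61 for Ly6g. Mapk9 turned to -0.048 with the median of ratios and ranged from -0.077 to 0.32 when single libraries were left out. The median of all genes was -0.045 with no filter and ranged from -0.072 to 0.16 when single libraries were left out, below 0 without tumor replicate 2 (-0.057) or 3, and that of the restraining genes was -0.57 at 5 TPM. Read depth could not be assessed.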
